A study of Mus musculus with 10 samples.

Results

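The proteasome degrades proteins that carry ubiquitin, and its subunits are encoded by genes scattered over many chromosomes. The genes described here were chosen by name and level: symbols that start with Psm followed by a letter from a to f and a digit, not on chromosome X, Y or 16, with a mean of at least 20 read pairs over the samples. The name pattern found 46 of 24386 genes, and 38 of them met the other conditions. These 38 genes lie on 14 chromosomes, 9 of them on chromosome 11, and all 38 are annotated as protein-coding. They were measured by transient transcriptome sequencing (TT-seq), which captures RNA labelled with 4-thiouridine (4sU) and so reads transcription rather than the RNA or protein present in the cell.

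TT-seq was carried out in TX1072 cells, a female embryonic stem cell line from a cross of Mus musculus castaneus (Cast) with C57BL/6 (B6), labelled WT for genotype and CAST / C57BL/6 for strain. Cells were grown in serum with LIF and 2i and plated 24 h before the start, and doxycycline (DOX, 1 µg/ml) was then given for 0, 4, 8, 12 or 24 h. In these cells DOX induces the endogenous Xist gene of the B6 X chromosome. Each of the 5 time points had 2 replicates (10 samples), and in all samples new RNA was labelled with 0.5 mM 4sU for 5 min. The 0 h cells had no DOX, and the 24 h cells had grown the longest, so effects of the drug, of Xist and of time in culture cannot be told apart. All samples are the same hybrid line without a line that receives DOX but lacks the inducible Xist. The study calls its duplicates biological.

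The core particle (20S) is a barrel of 4 rings. Alpha subunits (Psma) form the outer rings and gate the entrance, and beta subunits (Psmb) form the inner rings, in which Psmb5, Psmb6 and Psmb7 cut proteins. The regulatory particle (19S) binds ubiquitinated substrates: ATPases of its base (Psmc) unfold them, and its lid (Psmd) removes the ubiquitin. Other activators (Psme) can take the place of the regulatory particle, and in immune cells Psmb8, Psmb9 and Psmb10 replace the catalytic subunits. Nfe2l1 is a transcription factor that raises many proteasome genes together when proteasome activity falls, through a promoter element called the antioxidant response element (ARE).

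To show what the counted genes look like upstream of their start sites, the 250 bases before the start of 3 members that hold this element are given from RefSeq (GRCm38.p6), in the direction of transcription. Psmb5 and Psmb6 were chosen as the catalytic subunits with the lowest and the highest level of the beta ring, and Psmd9 as the gene with the most negative change at 24 h. Capitals mark the ARE core TGACNNNGC, searched on both strands.
Psmb5 (chr14:54617996-54618245, minus strand): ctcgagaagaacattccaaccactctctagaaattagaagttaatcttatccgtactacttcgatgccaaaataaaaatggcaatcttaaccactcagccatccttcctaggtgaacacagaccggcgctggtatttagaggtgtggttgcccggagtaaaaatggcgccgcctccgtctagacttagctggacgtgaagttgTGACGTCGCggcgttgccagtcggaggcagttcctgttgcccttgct
Psmb6 (chr11:70525107-70525356, plus strand): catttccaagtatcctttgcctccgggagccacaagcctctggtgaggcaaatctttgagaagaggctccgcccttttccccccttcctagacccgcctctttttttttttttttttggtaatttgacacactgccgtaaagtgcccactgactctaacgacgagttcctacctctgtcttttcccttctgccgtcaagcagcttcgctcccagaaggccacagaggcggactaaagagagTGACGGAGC
Psmd9 (chr5:123227940-123228189, plus strand): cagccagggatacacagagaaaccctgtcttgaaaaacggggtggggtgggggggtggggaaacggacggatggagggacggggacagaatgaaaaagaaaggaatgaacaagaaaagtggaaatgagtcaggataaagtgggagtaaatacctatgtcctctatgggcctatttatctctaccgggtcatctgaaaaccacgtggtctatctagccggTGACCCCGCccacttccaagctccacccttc
The first base of the match was 47 bases before the start in Psmb5, 9 bases before it in Psmb6 and 31 bases before it in Psmd9. RefSeq promoters of 300 bases (250 before and 50 after the start) were found for 31 of the 38 genes, and not for Psma8, Psmb1, Psmb2, Psmb7, Psmc3, Psmd3 and Psmd7. The ARE core was present in 6 of the 31 (19.4%), namely the 3 genes above, Psmc6, Psmd12 and Psme4, against 16.7% of the 11145 promoters of genes tested for total counts. The ETS core CCGGAAG was present in 11 of 31 (35.5%), against 18.5% of tested genes, and the YY1 core AAGATGG in 7 (22.6%), against 8.04%. The letters TGCGCA, which read the same on both strands, are a part of the site of the nuclear respiratory factor NRF1. That factor is not Nfe2l1, whose element is the ARE. TGCGCA was present in 6 (19.4%, against 15.1%), CCAAT in 11 (35.5%, against 42.5%) and TATAAA in 3 (9.68%, against 8.56%). None of the 3 printed ARE matches overlapped a match of another of these motifs. These are matches of letters, and binding was not measured.

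Total counts per sample ran from 18809046 to 22274929, and the 38 genes took 0.348% to 0.361% of them. The stem cell label was checked against 8 marker genes: 7 were above 10 CPM (counts scaled to the library size) in the samples, among them Pou5f1, Nanog and Esrrb, with a summed level of 2700 to 3030 CPM, while Sox2 was listed at 0. Whether the span of Sox2 shares reads with another entry was not examined, so that 0 does not show absent transcription. Summed markers of primitive endoderm, mesoderm, neural cells and fibroblasts reached at most 4.07, 10.6, 0.701 and 5.95 CPM. In 0 h replicate 1, 49.2% of read pairs could be assigned to an allele, against 51.7% to 52.8% in the other 9 samples.

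Nascent RNA of the proteasome genes was first compared per kb of the counted span, which runs over introns and exons. The median of the 38 genes was 4.49 CPM per kb, against 0.988 for the 14525 genes tested, and 35 of the 38 lay above that value. This is a description only, since the limit of 20 read pairs used the same counts. The highest and the lowest member differed 14.4-fold. Psmb6, the caspase-like catalytic subunit (chromosome 11, 70525357 to 70527858, plus strand, mm10), had the highest level at 10.3 ± 1.10 CPM per kb (SD, n = 10), and Psma3 of the alpha ring followed at 9.50 ± 0.276. The ranges of these 2 genes over the samples overlapped (9.30 to 12.9 and 9.10 to 9.85 CPM per kb). Psme2 (PA28 beta) had the lowest level at 0.715 ± 0.0948, next to the assembly chaperone Psmd9 at 0.768 ± 0.0622 and Psma8, an alpha subunit known from testis, at 0.783 ± 0.0678, and the ranges of these 3 also overlapped.

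Subunits that occupy equal numbers of places in the finished particle did not have equal levels per kb. This measure depends on the span that was counted and is not a rate of transcription. The other 6 alpha subunits measured ran from 4.47 (Psma7) to 9.50 CPM per kb (Psma3). In the beta ring, the catalytic Psmb5 was lowest at 3.61 ± 0.371 and Psmb6 highest, with the third catalytic subunit Psmb7 at 4.39 ± 0.176, and no sample of Psmb5 or Psmb7 reached the lowest sample of Psmb6. The 6 ATPases ran from 2.89 ± 0.204 (Psmc2) to 5.96 ± 0.293 (Psmc6). In the rest of the base, the ubiquitin receptor Psmd4 stood at 6.25 ± 0.318 and the scaffold Psmd1 at 4.52 ± 0.173. The 8 lid genes ran from 2.45 ± 0.0874 (Psmd3) to 5.48 ± 0.397 (Psmd11), with the deubiquitinase Psmd14 at 5.17 ± 0.290. Of the chaperones of base assembly, which leave the finished particle, Psmd5 was higher (3.20 ± 0.146) than Psmd9 in every sample. Among activators, Psme3 (PA28 gamma, nuclear) was highest at 5.06 ± 0.305 and Psme2 lowest. Psmc3ip, a meiotic recombination factor that only shares the prefix, stood at 1.92 ± 0.247.

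**Figure D1:**
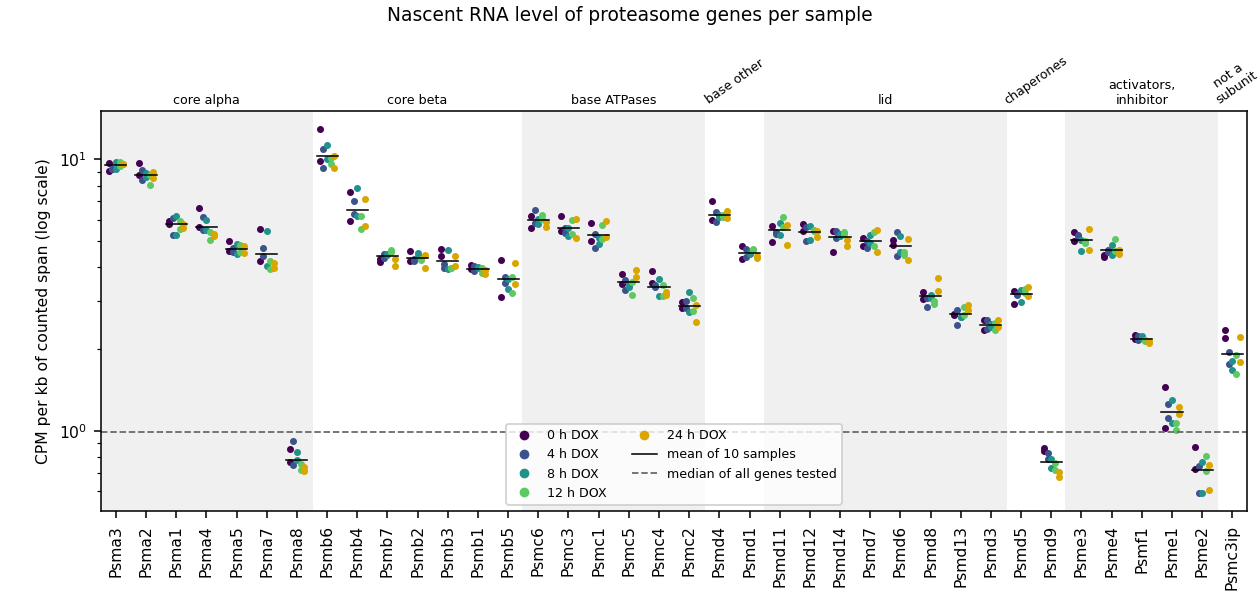
Level of each proteasome gene in CPM per kb of counted span (log axis), grouped by role; points are the 10 samples coloured by hours of DOX, black lines are means and the dashed line is the median of all 14525 genes tested (0.988). All samples of Psmb6 lie between 9.30 and 12.9, and Psma8, Psmd9 and Psme2 are the 3 genes whose mean lies under the dashed line.

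The genes left out mark where the measurement ends. Psme2 (mean count 54.2) and Psme1 (PA28 alpha, 72.9) were the members closest to the limit of 20, and Psmb10 (11.7) was the closest gene outside it. Psmb10, the immunoproteasome partner of Psmb7, had 3 to 17 read pairs per sample. Psmb9, the partner of Psmb6, had at most 3 in any sample, and Psmb8, the partner of Psmb5, had 1 read pair in the 10 samples together. The thymus subunit Psmb11 and the copy gene Psme2b had mean counts of 1.2 and 1.3. Psma6, a constitutive alpha subunit, was listed at 0 in all 10 samples; 100% of its span lies within a same-strand entry, Mir1198, so that reads there fall in 2 entries at once, and its level is not known. The remaining 2 genes, Psmd2 on chromosome 16 and Psmd10 on the X chromosome, were left out for their position.

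The comparison with 0 h asked whether transcription of proteasome genes moved while Xist was induced. No member was called changed at any time. The count was 0 of 38 in each of the comparisons of 4, 8, 12 and 24 h with 0 h, where 0.0138%, 0.193%, 0.95% and 1.85% of all genes tested were called (edgeR, adjusted p under 0.05). All genes tested include X-linked genes, which the rule leaves out of the 38. A test of all times together called 0 of 38, against 1.25% of all genes, with 0 members at an unadjusted p under 0.05 (8.45% of all genes), and the lowest adjusted p of a member was 0.712. DESeq2, limma-voom and the fit with a replicate block also called 0 at each time. In bulk samples such as these, fewer cells that transcribe a gene and less RNA per cell cannot be told apart. At an unadjusted p under 0.05, edgeR had 0, 1, 2 and 2 members in the 4 comparisons (up to 5.26% of the 38), all lower than in the 0 h samples, where 2.09%, 4.06%, 11.5% and 10.3% of all genes passed in either direction. These were Psmc3ip (8 and 12 h), Psma4 (12 and 24 h) and Psmd9 (24 h); Psma4 was named after its values were seen.

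The intervals show how large a change could have been missed. The 95% confidence interval of the log2 change lay within ±0.5 for 35 of the 38 genes at the first pair of times and for 33 at the later pair, and its median margin on each side was 0.2 log2 units. The widest intervals belonged to the lowest counts: at 24 h that of Psme2 ran from −0.73 to 0.26.

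At 24 h the most negative log2 change was that of Psmd9. Its level was 18.4 and 18.9 CPM in the 0 h samples, 18.1 and 17.2 after 4 h, 16.0 and 17.2 after 8 h, 16.7 and 15.7 after 12 h, and 14.8 and 15.4 after 24 h. Both 24 h samples lay below both 0 h samples, and the log2 change was −0.30 ± 0.106 (SE) with an adjusted p of 0.245 in edgeR, which missed the threshold. The edgeR fit with a replicate block gave Psmd9 an adjusted p of 0.0832, which missed it too. Psma7, of the alpha ring, had 33.9 and 25.8 CPM at 0 h, 24.3 and 25.3 at 24 h, and from 24.1 to 33.2 between them. Its 24 h change was −0.26 ± 0.142 (adjusted p = 0.579, edgeR, and 0.206 with the replicate block). Without 0 h replicate 1, the higher of its baseline samples, the change was −0.05, and without 0 h replicate 2 it was −0.46. Psme2 had 3.19 and 2.65 CPM at 0 h and 2.21 and 2.74 at 24 h, which overlap, and its change was −0.24 ± 0.230 (adjusted p = 0.824, edgeR). That change was −0.09 without 0 h replicate 1, −0.10 without 24 h replicate 1, −0.38 without 0 h replicate 2 and −0.41 without 24 h replicate 2.

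The 3 most positive changes were smaller. Psmd8, of the lid, had 21.0 and 19.9 CPM at 0 h, 18.5 to 20.5 from 4 to 12 h, and 23.7 and 21.3 at 24 h, so that it was highest in the 24 h samples. Its log2 change was 0.14 ± 0.103 (adjusted p = 0.744, edgeR), and it was 0.05 without 24 h replicate 1 and 0.21 without 24 h replicate 2. Psmd13, also of the lid, had 43.8 and 43.3 CPM at 0 h and 45.3 and 47.0 at 24 h (0.08 ± 0.0868, and 0.05 without 24 h replicate 2). Psmd5 had 55.3 and 61.8 CPM at 0 h and 59.5 and 64.1 at 24 h, which overlap (0.08 ± 0.0841), and its change was 0.01 without 0 h replicate 1 and 0.15 without 0 h replicate 2.

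The 3 catalytic subunits gave changes of different sign, none of which passed the test. Psmb5 had 16.5 and 12.1 CPM at 0 h and 16.1 and 13.5 at 24 h. Psmb6 had 32.3 and 24.7 CPM at 0 h and 25.7 and 23.3 at 24 h. Psmb7 had 235 and 241 CPM at 0 h and 227 and 240 at 24 h. Each gene's 24 h samples overlapped its 0 h samples, and the log2 changes were 0.05 ± 0.149, −0.22 ± 0.128 and −0.03 ± 0.0666. Psmc3ip had its largest difference at 8 h, with 5.51 and 5.93 CPM against 7.72 and 7.23 at 0 h (log2 change −0.39 ± 0.163, adjusted p = 0.996, edgeR), and at 24 h it had 7.28 and 5.88 CPM.

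Among the 38 genes, 9 (23.7%) had both 24 h samples below both 0 h samples, where 17.3% of all genes tested did, and 3 (7.89%) had both above, where 19.0% did. The 9 were Psma4, Psma7 and Psma8 of the alpha ring, Psmb1 and Psmb3 of the beta ring, Psmc4, Psmd9, Psmd12 and Psmf1, and the 3 were Psmd8, Psmd13 and Psme4 (named after their values were seen). By group, the median log2 change at 24 h was −0.07 in the alpha ring (1 of 7 positive), −0.07 in the beta ring (1 of 7), −0.05 in the ATPases (2 of 6), −0.06 for the 2 other base genes, 0.01 in the lid (4 of 8), −0.11 for the 2 chaperones and −0.06 for the 5 activator and inhibitor genes. All of these are medians of changes that did not pass the test.

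**Figure D2:**
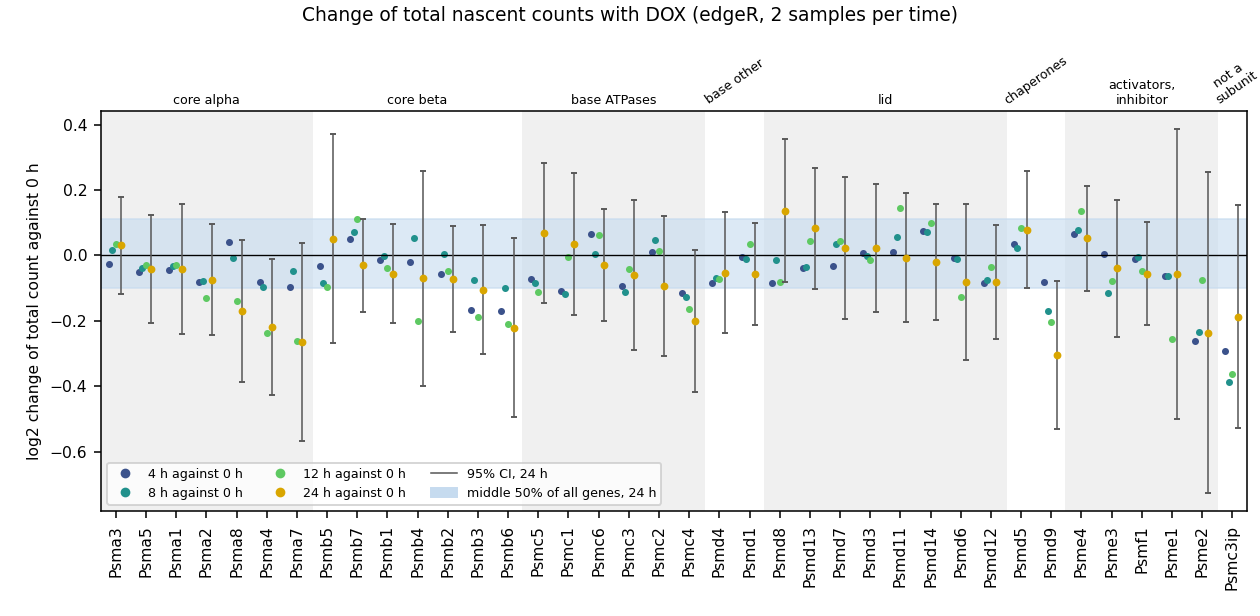
Log2 change of total count against 0 h for each proteasome gene, grouped by role; small points are 4, 8 and 12 h, yellow points are 24 h with 95% confidence intervals from edgeR (2 samples per time), and the blue band holds the middle 50% of all genes tested at 24 h (−0.10 to 0.11). The 24 h values run from −0.30 (Psmd9) to 0.14 (Psmd8), and none passed the test after adjustment.

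As a set, the 38 genes sat slightly below the other genes at each time. Their median log2 change was −0.04, −0.03, −0.05 and −0.06 in the order of the times, while the median of all genes tested lay between −0.004 and 0.0084. Below that median were 28, 27, 27 and 28 of the 38. The comparisons share the 0 h samples. The median deviation of the 38 genes from their own means was 0.03 and 0.04 in the 0 h samples, and from −0.04 to 0.03 in the other 8 samples, with 3 of those 8 above 0. Replicates of the same time differed by up to 0.07 (4 h: 0.03 and −0.03, 8 h: −0.04 and 0.03), and their pooled SD was 0.034. Set against the 0 h sample of its own replicate number, each of the 8 later samples was lower, by a margin that ran from the 4 h sample of replicate 1 (−0.0023) to the 8 h sample of the same replicate (−0.0753). The 4 differences of a replicate share 1 baseline sample.

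Agreement within the complex was described by the Pearson r of log2 CPM over the 10 samples. Over the 703 pairs of members the median r was 0.14 (middle 50% of pairs −0.25 to 0.41), against −0.001 over all pairs of genes tested. The members had higher counts (median of the mean counts 907, against 372 for all genes tested). No pairs matched for count or span were compared, so the difference in r cannot be assigned to the complex. Pairs within the alpha ring had a median r of 0.29 (21 pairs), within the beta ring 0.19 (21 pairs), within the lid 0.11 (28 pairs), among the ATPases 0.067 (15 pairs) and among activators −0.099 (10 pairs). Pairs from different groups had a median of 0.15 (606 pairs), so that only the alpha ring and, more narrowly, the beta ring had a higher median. Without 0 h replicate 1 the medians were 0.41 for the alpha ring, 0.079 for the beta ring, 0.13 for the lid, −0.1 for the ATPases, −0.11 for activators and 0.13 for pairs from different groups, so that the beta ring then lay below pairs from different groups. All pairs share the same 10 libraries and their depth.

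The pairs divided by length. Among the 10 genes with the shortest counted spans (up to 6.93 kb, Psmb6 to Psmc5) the median r was 0.47, with 43 of 45 pairs above 0, and among the 10 with the longest spans (from 22.6 kb, Psmb1 to Psme4) it was 0.37, with 37 of 45 above 0. Between a short and a long gene the median r was −0.34, with 21 of 100 pairs above 0. In 0 h replicate 1 the 10 short genes had a median deviation of 0.27 log2 units and the 10 long genes −0.04; in 0 h replicate 2 the values were −0.05 and 0.07. Spearman's rho of the deviation with span over the 38 genes was −0.81 in 0 h replicate 1 and 0.43 in 0 h replicate 2. In replicates 1 and 2 of the other times it was −0.48 and 0.59 (4 h), 0.51 and −0.13 (8 h), 0.63 and 0.33 (12 h), and −0.48 and 0.27 (24 h), so the sign differed between replicates at every time but 12 h. Over all 14525 genes the same rho ran from −0.36 to 0.30, and it was −0.27 in 0 h replicate 1. Without that sample the median r among short genes was 0.27 and between short and long genes −0.27.

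**Figure D3:**
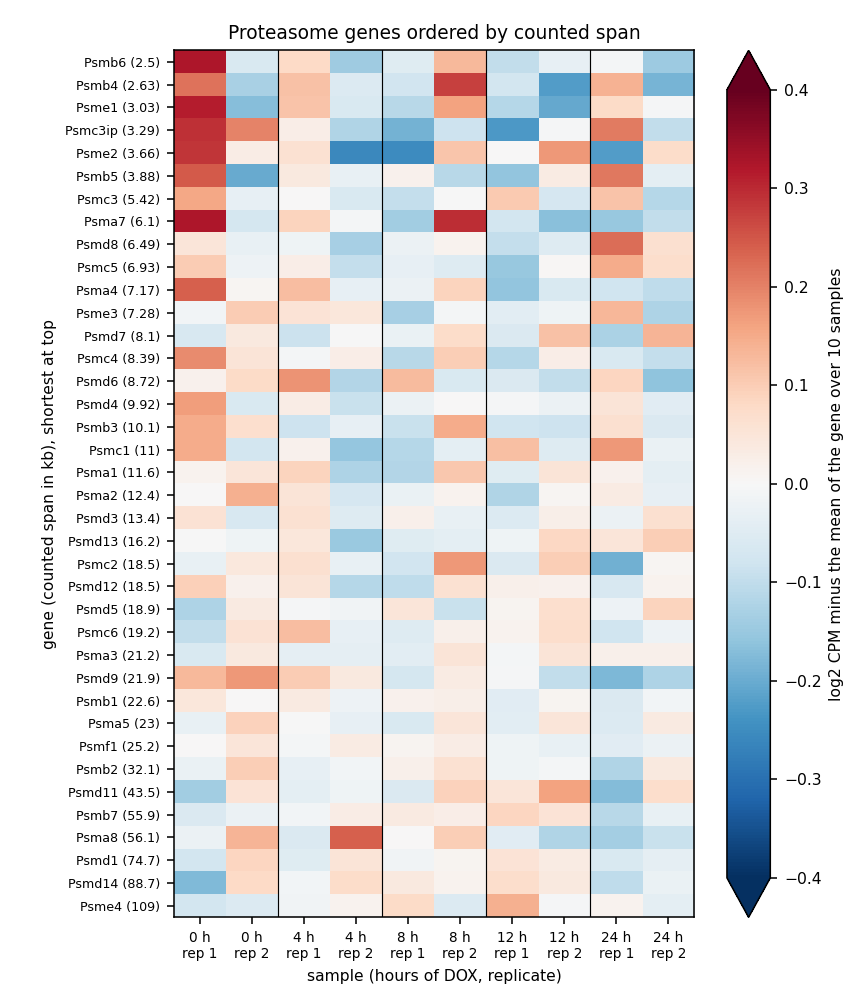
Log2 CPM of each proteasome gene minus its mean over the 10 samples (colour, red above and blue below the mean), with genes ordered by counted span in kb and samples by hours of DOX and replicate. The shortest genes are red in 0 h replicate 1 (median 0.27 for the 10 shortest) and the longest are pale blue there (median −0.04 for the 10 longest).

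The log2 changes against 0 h also varied with span, by an amount that depended on single samples. With all samples, rho between log2 change and span over the 38 genes was 0.65, 0.59, 0.66 and 0.23 for 4, 8, 12 and 24 h. Without 0 h replicate 1 it was −0.26, −0.32, −0.02 and −0.43, and without 0 h replicate 2 it was 0.80, 0.79, 0.80 and 0.58. Samples with DOX moved it too: rho was 0.17 at 4 h without 4 h replicate 2, 0.28 at 8 h without 8 h replicate 1, and at 24 h −0.22 without 24 h replicate 2 and 0.50 without 24 h replicate 1. The sign therefore turned on 0 h replicate 1 at all times and, at 24 h, also on 24 h replicate 2. The share of allelic reads was also lowest in 0 h replicate 1 (49.2%). It was 51.7% in 4 h replicate 1 and 52.2% in 24 h replicate 1, where rho of the deviation with span was −0.48 in each. Whether that share has a part in the result was not tested.

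**Figure D4:**
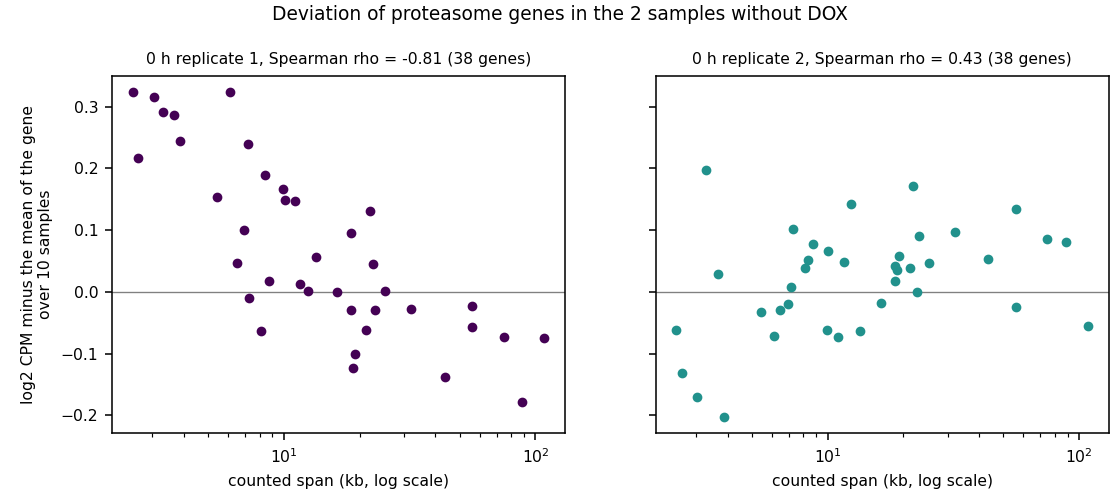
Deviation of each of the 38 genes from its own mean (log2 CPM, vertical axis) against its counted span in kb (log axis) in the 2 samples without DOX. The deviation falls with span in replicate 1 (rho −0.81) and rises with it in replicate 2 (rho 0.43).

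Genes that assemble, bind or regulate the proteasome were examined with the same fit. None of the 5 core assembly chaperones tested (Psmg1 to Psmg4, Pomp), of 7 other particle-bound proteins, of 6 genes for transcription and nuclear import of the proteasome and of 11 ubiquitin and shuttle genes was called at any time in edgeR (0.0138% to 1.85% of all genes were). At an unadjusted p under 0.05 there were 0, 2, 1 and 2 of them at 12 h, where 11.5% of all genes passed, and 0 at the other times, where 2.09% (4 h), 4.06% (8 h) and 10.3% (24 h) did. Nfe2l1 had 51.2 and 47.9 CPM at 0 h and 52.7 and 49.6 at 24 h, which overlap (log2 change 0.05 ± 0.0847, adjusted p = 0.928, edgeR). Nfe2l2, a related factor that answers oxidative stress, had 242 and 254 CPM at 0 h and 266 and 279 at 24 h, with both 24 h samples higher (0.14 ± 0.0727, adjusted p = 0.562, edgeR).

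The share of nascent reads from each parental chromosome was given by the d-score, B6 reads over B6 plus Cast reads, so that 0.5 means equal reads. Allelic reads made up a median of 50.5% of a member's total reads, and 25.2% to 74.7% in all but Psmd11, where only 1.81% could be assigned. The B6 share was called changed in 0 of 38 members at each of 4, 8, 12 and 24 h, where 0.353%, 1.65%, 2.16% and 2.65% of all 11906 genes tested were called (edgeR), and DESeq2 and the replicate block also called 0. Of those 11906 genes, 11543 were autosomal, as all 38 members are, and the rest lay on the sex chromosomes. A share over autosomal genes alone was not computed, so the 0 of 38 cannot be read as unusual stability. At an unadjusted p under 0.05, edgeR had 2, 0, 2 and 1 members (up to 5.26% of the 38), where 4.98%, 6.05%, 7.53% and 8.30% of all genes passed. The lowest adjusted p at 24 h was 0.51, for Psma7, whose d-score was 0.480 ± 0.0086 at 0 h and 0.558 ± 0.015 at 24 h (SD, n = 2).

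The difference between alleles over all times was larger. The B6 allele was called higher in 11 of 38 members (28.9%, against 35.2% of all genes) and the Cast allele in 11 (28.9%, against 35.9%). In this test equal expression means the centre of the scaled columns, which lies near the autosomal median d-score of 0.522 and not at 0.5. Higher from B6 were Psma5, Psma8, Psmb3, Psmb6, Psmb7, Psmc1, Psmd4, Psmd9, Psmd14, Psme3 and Psme4. Called higher from Cast, relative to that centre, were Psma3, Psmb1, Psmb2, Psmc6, Psmd1, Psmd5, Psmd7, Psmd8, Psmd13, Psme1 and Psme2. Of these, Psma3, Psmb1, Psmb2, Psmc6 and Psmd1 had mean d-scores of 0.500 to 0.505. Their B6 and Cast reads were thus nearly equal, without an excess of Cast reads beyond counting error. Psmc1, Psme2 and Psme3 lost the call in DESeq2 (adjusted p = 0.0851, 0.0615 and 0.0718), and Psmc1 also without 0 h replicate 2 or 24 h replicate 2 (edgeR adjusted p = 0.0931 and 0.0591).

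Most of these differences were small. The mean d-score of 32 of the 38 genes lay between 0.45 and 0.60, and the median over members was 0.516, against a middle 50% of 0.479 to 0.567 over 11543 autosomal genes. Samples of a member scattered little more than counting alone would give: the median ratio of the SD over samples to the counting SD was 1.08, against 1.05 over autosomal genes. Toward B6, Psmb6 came next after Psma8, Psme4 and Psmd9 at 0.601 ± 0.019 (SD, n = 10), while Psmb5 was at 0.494 ± 0.030 and Psmb7 at 0.533 ± 0.0066.

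Nascent reads of Psma8 came almost entirely from the B6 chromosome. Its B6 reads were 455 and 593 in the 0 h samples, 453 and 504 after 4 h, 502 and 490 after 8 h, 452 and 469 after 12 h, and 455 and 475 after 24 h. Its Cast reads were 10 and 19, 9 and 16, 18 and 11, 18 and 11, and 15 and 12 in the same samples. The d-score was at least 0.962 in each of the 10 samples, and the log2 ratio of B6 to Cast was 4.99 ± 0.075 (adjusted p = 4.72e-99, edgeR). Summed over samples, B6 reads made up 97.2% (95% Wilson interval 96.7% to 97.6%, counting error only). A d-score of 0.95 or more was found in 67 of the 11543 autosomal genes (0.58%). The genes compared on either side did not share it: Ss18, 23.2 kb before Psma8, had a mean d-score of 0.596 ± 0.01, and Taf4b, 20.9 kb after it, had 0.517 ± 0.012. Here and below, the gene compared is not always the adjacent one.

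Psme4, which encodes the activator PA200 (chromosome 11, 30771775 to 30880361, plus strand, mm10), had a d-score of 0.682 ± 0.0073 with 4914 to 5849 allelic reads per sample, and each sample lay between 0.669 and 0.690. Its log2 ratio was 0.98 ± 0.0163 (adjusted p = 1.19e-93, edgeR). The genes compared with it, Acyp2 (122 kb before it) and Erlec1 (49.4 kb after it), had mean d-scores of 0.651 ± 0.031 and 0.533 ± 0.019. Psmd9 (chromosome 5, plus strand, 123228190 to 123250125) stood at 0.666 ± 0.032 with 179 to 267 allelic reads, and its values were 0.696 and 0.693 at 0 h and 0.659 and 0.629 at 24 h. Both 24 h values lay below both 0 h values, and the change of the ratio was not called (log2 −0.33, 95% confidence interval −0.77 to 0.11, adjusted p = 0.804, edgeR). The genes compared with Psmd9, Setd1b (59.6 kb before it) and Bcl7a (94.3 kb after it), had mean d-scores of 0.512 ± 0.033 and 0.599 ± 0.022. A d-score of 0.65 or more was found in 3 of the 38 members and in 9.55% of autosomal genes.

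Toward Cast, the 3 lowest members were Psme2 at 0.409 ± 0.098, Psme1 at 0.427 ± 0.068 and Psmd8 at 0.460 ± 0.045 (SD, n = 10). Psme1 and Psme2, whose products form the PA28 ring together, lie 5.91 kb apart on chromosome 14. They had few allelic reads, 38 to 56 per sample for Psme1 and 12 to 32 for Psme2, and their samples ran from 0.310 to 0.562 and from 0.211 to 0.529. Each had 1 of 10 samples above the autosomal median. Of the other genes compared, Rnf31 beyond Psme2 had 0.494 ± 0.036 and Dcaf11 before Psme1 had 0.536 ± 0.072. Psmd8 had 145 to 218 allelic reads per sample and ran from 0.383 to 0.510, with each sample below the autosomal median.

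**Figure D5:**
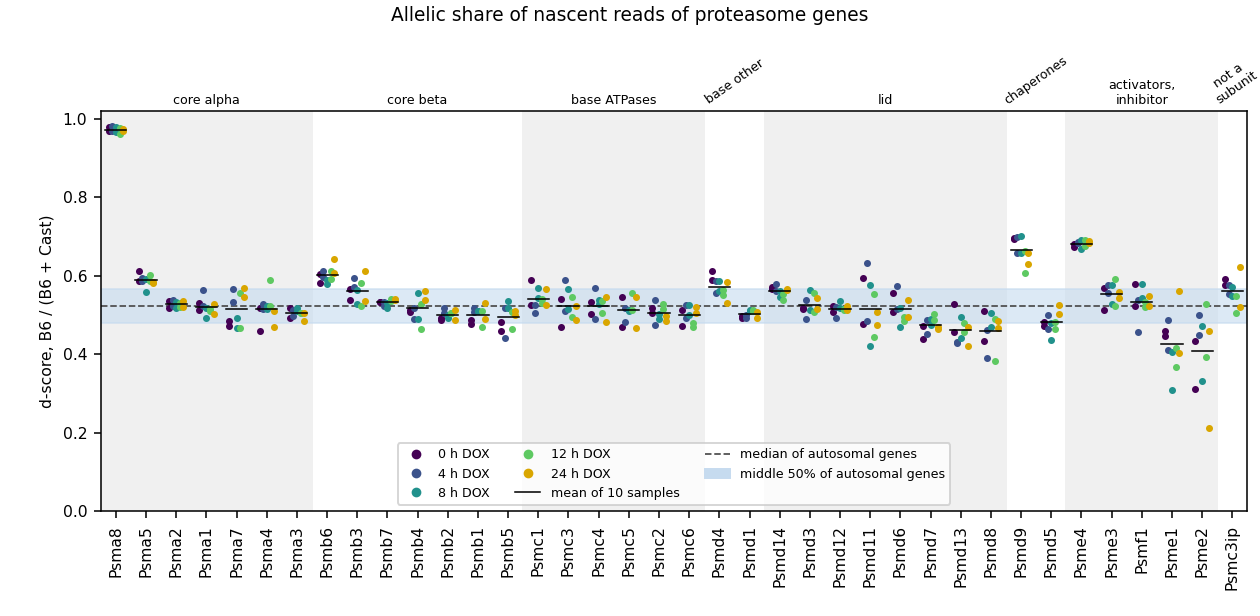
D-score (B6 reads over B6 plus Cast reads) of each proteasome gene, grouped by role; points are the 10 samples coloured by hours of DOX, black lines are means, the dashed line is the autosomal median (0.522) and the blue band holds the middle 50% of autosomal genes (0.479 to 0.567). Psma8 lies at 0.962 or more in each sample, Psme4 and Psmd9 lie above the band, and Psme1 and Psme2 scatter most toward Cast.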

How the data were processed

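TT-seq of 10 samples was used, 2 at each of 0, 4, 8, 12 and 24 h of DOX, grouped by the sample labels. The authors trimmed reads, aligned them to mm10 with strain-specific positions masked, assigned read pairs to alleles with SNPSplit and counted them by strand over the longest refFlat span of each gene, introns included. The submitters' processing notes name featureCounts 1.5.1, bedtools and TopHat2 2.1.0, whereas the methods of the study name STAR as the aligner. No scaling to spike-ins and no removal of duplicates is stated, so a change in all transcription at once would not be seen. The deposited values are raw counts of all, B6 and Cast read pairs per gene. The authors also deposited a fraction, B6 over allelic counts, given from 10 allelic reads on, and it matched the counts.

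Total counts were fitted with edgeR 4.0.16 (quasi-likelihood, filterByExpr, TMM, time as a factor, R 4.3.3) over all 10 samples, and p-values were adjusted by Benjamini-Hochberg over 14525 genes. Alleles were fitted in edgeR on 20 columns with an intercept per sample, for the 11906 genes whose allelic reads numbered 10 or more in each sample. Tests were two-sided at 0.05, and intervals are at 95%. The scripts were tested on simulated data. Samples with the same replicate number deviated together (r of deviations 0.142 to 0.281 in 10 of 10 pairs of times), so the numbers were taken to pair the samples from shared numbers and these values, and a replicate block was run. Alternatives were DESeq2 1.42.0, limma-voom 3.58.1, other scalings and filters, and leaving out each sample. Figures used matplotlib 3.10.9.

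The genes, lists and tests were chosen with earlier results of these data known. Named are members called for total counts, the 3 largest changes each way at 24 h, the 3 highest and lowest d-scores, the highest and lowest level in each role, the catalytic and immunoproteasome subunits, Psmc3ip, the related factors Nfe2l1 and Nfe2l2 and the genes next to the count limit. Spans come from the deposited tables (mm10), with starts read as 0-based; 6 of the 38 then equalled the GENCODE M21 start. Psmb5 overlaps Mir686 on the same strand over 2.81% of its span.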

Additional observations from a re-analysis of the deposited data

How the results depend on the processing

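No member passed the test for total counts or for a change of B6 share in any alternative that was run. The members called between alleles stayed within 1.5 times the main counts: B6 was higher in 9 with DESeq2, 13 with scaling to column totals and 12 of 36 with at least 50 allelic reads, and Cast was higher in 10, 11 and 9. Psmc1, Psme2 and Psme3 were the called genes that lost the call in an alternative. Leaving out each sample in turn gave 10 to 12 higher from B6 and 11 to 12 higher from Cast. The replicate block (a paired fit) gave 12 and 11 and changed no other count of calls. The median log2 change of the members kept its sign throughout. Scaling to the total count gave −0.0985 at 12 h in place of −0.0477. Over the fits that left out 1 sample it ran from −0.106 (without 4 h replicate 1) to −0.0173 at 4 h, from −0.0851 (without 8 h replicate 2) to −0.00182 (without 8 h replicate 1) at 8 h, from −0.0813 to −0.0156 at 12 h and from −0.0634 to −0.0511 at 24 h. In these fits the lone sample of a time is assumed to vary like the others. Low counts limit Psme1 and Psme2, and the number of assignable reads limits Psmd11.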

Other observations

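Psmd10 and Psmd2 were left out above for their chromosome. Psmd10, an X-linked chaperone of base assembly, had a d-score of 0.546 ± 0.026 before DOX, which was 0.465 ± 0.080 after 4 h, 0.379 ± 0.014 after 8 h, 0.244 ± 0.0088 after 12 h and 0.363 ± 0.012 after 24 h (SD, n = 2). Its B6 share was called lower at 12 h (log2 change of the ratio −1.90 ± 0.359, adjusted p = 3.6e-05, edgeR) and missed the threshold at 24 h (−1.07 ± 0.332, adjusted p = 0.0575). Its total level was 9.68 ± 0.674 CPM at 0 h and 6.29 ± 0.699 at 12 h (log2 change −0.62 ± 0.144, adjusted p = 0.0596, edgeR). Psmd2, a scaffold of the base on chromosome 16, had a d-score from 0.316 to 0.407 over the 10 samples, and its B6 share and total count were called at no time in edgeR. Among the related genes, Ufd1 and Psmg1 also lie on chromosome 16, with mean d-scores of 0.304 and 0.469. Whether the share of Psmd2 is particular to this gene or common to its chromosome was not tested.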
